A study of Mus musculus with 17 samples.

Results

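The genes described here encode the subunits of voltage-gated sodium, calcium and potassium channels, pacemaker channels, inward rectifiers, tandem-pore background channels and calcium-activated potassium channels. They were taken as the protein-coding mouse genes whose symbol starts with Kcn or Cacn, or with Hcn or Scn followed by a digit. This gave 138 of the 55486 genes of the count table, and 21973 of those are protein-coding. Of the 138, 48 had enough counts to be tested, meaning about 10 counts in as many libraries as the smallest group holds. All 13229 genes that passed this filter were fitted together, and 25 of the 48 channel genes had a mean level of at least 3 on the log2 CPM scale (CPM is the count as parts per 1000000 counts of the library, scaled between libraries by TMM).

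RNA was sequenced from ventricular cardiomyocytes isolated from mice at 60 days of age, labelled either MBNL1 loss-of-function (KO) or WT. The cells were plated on laminin and treated with 2 µg/mL actinomycin D, which stops transcription, and were collected at 0, 4 and 8 h. There were 3 libraries in each of the groups KO at 0 h, KO at 4 h, KO at 8 h, WT at 0 h and WT at 8 h, and 2 in WT at 4 h, for 17 libraries in all. The series asks which transcripts differ in stability with MBNL1, and the genotype comparison at 0 h adds the difference in level before the block. The labels do not give the allele, a Cre driver or promoter, an inducing agent, or whether libraries of a group came from separate animals, so p-values measure the spread between these samples, which may be technical.

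Sodium channels start the cardiac action potential. L-type calcium channels built on Cacna1c then admit the calcium that sets off contraction, and potassium channels of several families return the membrane to rest and hold it there. Each pore protein works with accessory subunits that alter its gating or its delivery to the membrane, and MBNL1, a muscleblind protein, binds RNA and is known to regulate splicing, localisation and decay.

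The targeted gene, Mbnl1, was not lower in the libraries labelled KO. Its level was 87.5 ± 1.3 CPM (SD, n = 3) in WT at 0 h and 100 ± 5.37 CPM (n = 3) in KO at 0 h, and the log2 fold change (KO over WT) was 0.19 ± 0.05 (SE) at 0 h, 0.14 ± 0.05 at 4 h and 0.26 ± 0.05 at 8 h. A count over the whole gene does not show the loss of part of it, so this does not check the genotype, and KO and WT below stand for what the libraries are labelled. Esr1, the oestrogen receptor gene, separated the labels, with 36443 to 46057 counts per library in the 9 labelled KO and at most 57 in the 8 labelled WT. Library totals were 17058419 to 17968827 counts, of which mitochondrially encoded genes held 35.1 to 43.3%. At 0 h, 7 of 10 cardiomyocyte markers were higher in KO, and their summed level was 43600 to 47700 CPM in the WT and 57800 to 61000 CPM in the KO libraries. Lower in KO at 0 h were 8 of 9 endothelial markers (summed level 248 to 259 CPM in WT and 176 to 202 in KO; the ninth, Flt1, was higher), 7 of 8 fibroblast markers (66.9 to 68.6 and 34.4 to 37.5) and all 8 tested of 9 macrophage markers (75.1 to 87.6 and 28.5 to 32.4). None of the 9 pericyte and smooth muscle markers passed the test at 0 h, 7 of them being testable, and their sums overlapped. In bulk RNA, fewer cells of a type and less RNA per cell cannot be told apart, and the part of these markers in the results below was not tested.

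Among the channel genes of the WT libraries at 0 h, levels per kb of exon were highest for Kcnip2, the accessory subunit of the transient outward potassium current, with a median of 48.2 CPM per kb (range 47.1 to 49.3, n = 3). Kcnk3, the background channel TASK-1, was at 35.8 CPM per kb (32.3 to 36.1). Its range did not overlap that of Kcnj11, the pore of the ATP-sensitive potassium channel, at 30.0 CPM per kb (28.0 to 32.0). Scn4b, a sodium channel beta subunit, was lower than these at 18.7 CPM per kb (16.8 to 19.2), and its range overlapped those of Kcnj5 (17.9 CPM per kb) and Cacna2d1 (16.8 CPM per kb). In KO at 0 h the same gene was at 6.14 CPM per kb (5.91 to 6.46) and came after 14 other channel genes.

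**Figure D1:**
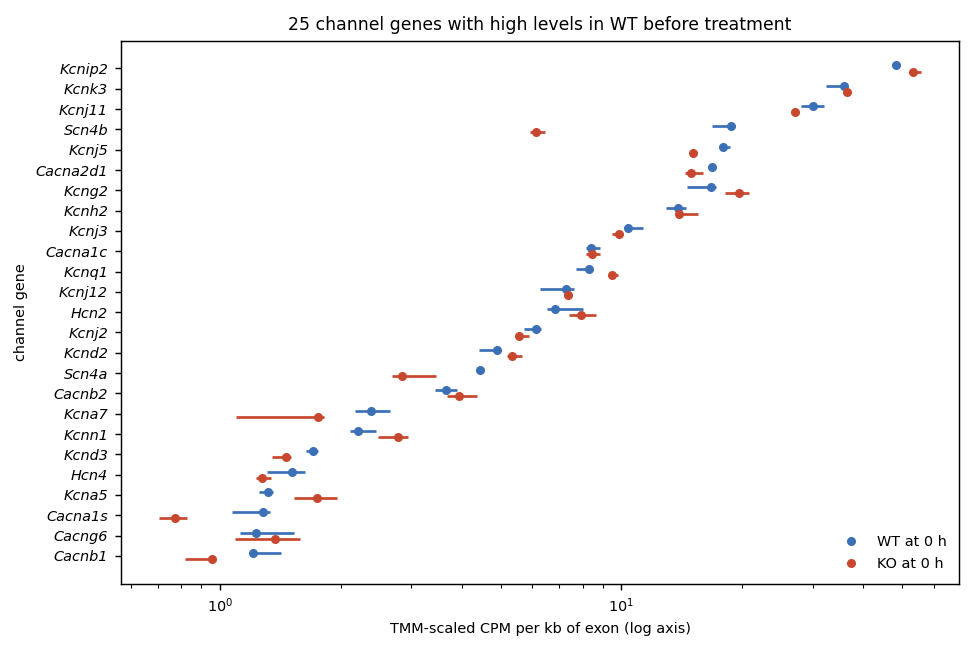
TMM-scaled CPM per kb of exon (log axis) of 25 channel genes with high WT levels at 0 h. Points are medians and bars the range over 3 libraries of WT (blue) and KO (red). Scn4b stands apart, at 18.7 in WT and 6.14 in KO.

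The other 90 members could not be tested. Of these, 18 had no count in any library, which allows a level of up to 0.0101 CPM over the 297948407 counts of all libraries (3 counts, counting error only). The other 72 had at most 73 counts over all libraries together, the number reached by Kcnab3, and at most 11 in any 1 library. Most were genes known from neurons and other tissues. They included 6 of 10 sodium channel pores (Scn1a, Scn2a, Scn3a, Scn8a, Scn9a and Scn11a), 4 of 10 calcium channel pores (Cacna1b, Cacna1e, Cacna1f and Cacna1i), the sodium channel beta subunits Scn2b and Scn3b, the pacemaker gene Hcn3, 26 of 40 voltage-gated potassium (Kv) pores, 12 of 14 two-pore-domain channels and 10 of 12 calcium- or sodium-activated channels. They were left out of the main fit, so the calls below do not cover differences between groups in these genes.

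Muscleblind proteins are known to bind pyrimidine-GC-pyrimidine tetramers, and the annotated 3′ UTRs of the members were searched on the sense strand for CGCC and CGCT and also for TGCC and TGCT, which may overlap each other. A match is a description and does not show binding. Below, Scn4b and Kcne1, which differed by more than 2-fold in all 3 genotype comparisons, and each member whose change over 8 h differed between genotypes (Kcnk3, Kcnn1 and Cacna1c) are each shown by the 30 bases of the 3′ UTR that hold the most of these tetramers, printed 5′ to 3′ with the tetramers in capitals.
Scn4b: ctccTGCTGCCTGCCtagtctgtcttTGCT
Kcne1: gagaacatgggacaaTGCCCGCCtgtTGCT
Kcnk3: agcctttcTGCTtccccaaTGCCttaTGCC
Kcnn1: tggcTGCTgacCGCTagacTGCTccatctc
Cacna1c: ccaggggggcgcaggcTGCTGCCtggTGCT
In GRCm38 with GENCODE M21 transcripts these lie at chr9:45151095-45151124 (forward strand) for Scn4b, chr16:92346525-92346554 (reverse) for Kcne1, chr5:30625070-30625099 (forward) for Kcnk3, chr8:70844286-70844315 (reverse) for Kcnn1 and chr6:118593339-118593368 (reverse) for Cacna1c. The window of Scn4b held 4 tetramers and the other windows 3. Such windows are common, since 52.0% of the 11970 tested genes with an annotated 3′ UTR had at least 1 window with 3 or more tetramers and 16.0% had 1 with 4 or more, although only 0.775% and 0.108% of all windows did. Over the whole 3′ UTR, Scn4b had 18.4 tetramers per kb (84.8th percentile of tested genes), Kcne1 15.5, Kcnk3 14.0, Cacna1c 12.5 and Kcnn1 9.26 per kb. The median of the 47 tested members with at least 100 bases of 3′ UTR was 12.2 per kb, beside 12.6 per kb over 11660 tested genes. Hcn2 (38.7 per kb) and Cacnb1 (26.6 per kb) lay at the 99.6th and 97.1st percentiles.

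Before the block, 24 of the 48 tested members differed between KO and WT in edgeR's quasi-likelihood test with Benjamini-Hochberg adjustment over all tested genes (adjusted p under 0.05), beside 36.6% of all tested genes. Of these, 8 were higher in KO (18.8% of all genes were) and 16 were lower (17.9% of all genes). The median log2 fold change was -0.18 over the members and -0.02 over all genes. The split depended on the scaling, since it was 1 higher and 27 lower when counts were scaled by library size only, which shifted the median of all genes by -0.21. Scaled to ribosomal protein genes, the split was 1 higher and 35 lower, with a shift of -0.33. Calls that held under all 25 alternatives numbered 11, 1 higher and 10 lower. They included Kcne1, which was higher, and Scn4b, Scn4a, Cacna1s, Cacnb1, Kcnj5, Kcna7 and Kcnv2, which were lower.

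**Figure D2:**
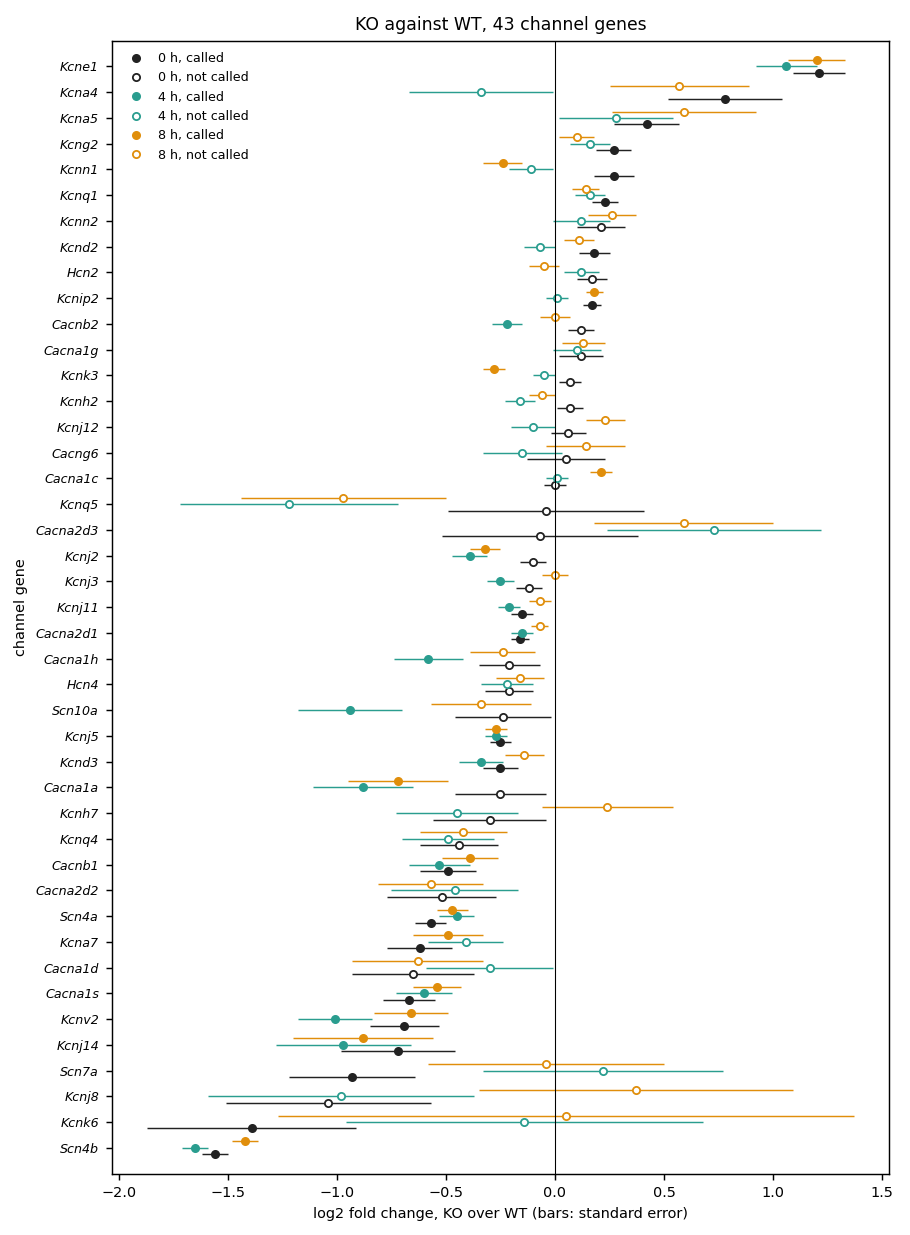
Log2 fold change of KO over WT for 43 of the 48 tested channel genes at 0, 4 and 8 h, with bars for the standard error; filled points passed the adjusted p of 0.05. Kcne1 lies at the top with 1.21 at 0 h, and Scn4b (-1.56) at the bottom.

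All sodium channel genes that passed the test at 0 h were lower in KO. Scn4b encodes a beta subunit that takes part in the resurgent sodium current. Its levels in the WT libraries were 83.9, 93.3 and 95.4 CPM at 0 h, 108 and 110 CPM at 4 h, and 100, 104 and 102 CPM at 8 h. In the KO libraries they were 30.6, 29.5 and 32.2 CPM at 0 h, 35.7, 34.3 and 34.3 CPM at 4 h, and 38.6, 40.8 and 35.3 CPM at 8 h. Every KO library lay below every WT library, with the highest KO level under the lowest WT level at any time. Scn4b was 2.96-fold lower in KO at 0 h (log2 fold change -1.56 ± 0.06 SE, adjusted p = 3.7e-33), and the log2 fold change was -1.65 ± 0.06 at 4 h and -1.42 ± 0.06 at 8 h.

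Scn4a, the pore of skeletal muscle sodium channels, was also lower in KO (log2 fold change -0.57 ± 0.07 at 0 h, -0.45 ± 0.08 at 4 h and -0.47 ± 0.07 at 8 h), with 31.4, 31.0 and 31.7 CPM in WT and 20.0, 18.8 and 24.3 CPM in KO at 0 h. Scn10a, a pore known from sensory neurons, passed at 4 h only (-0.94 ± 0.24), and not without WT replicate 2 at 4 h (-0.60, adjusted p = 0.156).

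There were 12 tested partners of sodium channels (a list of 14 with fibroblast growth factor homologues, ankyrins and others). Of these, 5 were higher in KO at 0 h and none lower, beside 18.8% and 17.9% of all genes. Their median log2 fold change was 0.01. Dmd, the dystrophin gene, had 73.8, 72.9 and 76.5 CPM in WT and 162, 167 and 167 CPM in KO at 0 h, and its log2 fold change was 1.15 ± 0.05 (SE, adjusted p = 1.1e-29, edgeR). Dmd therefore went the other way from Scn4b in the same libraries. Fgf13, Ank2 and Cav3 were also among those higher, by less than Dmd. Their group means at 0 h were 41.5, 108 and 38.8 CPM in WT and 51.3, 117 and 45.9 CPM in KO. Library size alone shifted the median of all genes by -0.21 in this comparison. How many of the 5 calls hold under that scaling is not reported here.

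Of 6 tested calcium channel pores, 1 was called at 0 h, beside 36.6% of all genes. Cacna1s, the L-type pore of skeletal muscle, had 6.99, 8.72 and 8.38 CPM in WT and 5.41, 4.62 and 5.08 CPM in KO at 0 h, without overlap. Its log2 fold change was -0.67 ± 0.12 (SE, adjusted p = 3.9e-06, edgeR) at 0 h, -0.60 ± 0.13 at 4 h and -0.54 ± 0.11 at 8 h. Of the exon length of Cacna1s, 20.0% overlaps an antisense gene, and whether the counting used strand is not given in the sources used here, so this value is uncertain. Cacna1c, the L-type pore of the heart, was level between genotypes at 0 h, with 172 to 188 CPM in WT and 172 to 187 CPM in KO (log2 fold change 0.00 ± 0.05). The T-type pore Cacna1h passed at 4 h only, with a log2 fold change of -0.58 ± 0.16 (adjusted p = 0.00241, edgeR), and the neuronal pore Cacna1a at 4 h (-0.88 ± 0.23) and 8 h (-0.72 ± 0.23, lost without KO replicate 1 or WT replicate 2 at 8 h, adjusted p = 0.0777 and 0.127). Cacna1d, the L-type pore of nodal cells, did not pass at any time.

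Among the accessory calcium channel subunits, Cacnb1, the beta subunit best known from skeletal muscle, was lower in KO, with 5.47, 5.50 and 6.42 CPM in WT and 4.34, 3.72 and 4.33 CPM in KO at 0 h. Its log2 fold change was -0.49 ± 0.13 (SE, adjusted p = 0.00247, edgeR) at 0 h, -0.53 ± 0.14 at 4 h and -0.39 ± 0.13 at 8 h. The 4 h call was lost without WT replicate 2 at 4 h (adjusted p = 0.0602), and the 8 h call without KO replicate 1, KO replicate 2 or WT replicate 3 at 8 h (adjusted p = 0.0812, 0.143 and 0.163). The cardiac beta subunit Cacnb2 was not called at 0 h (0.12 ± 0.06). Cacna2d1, the main cardiac alpha2delta subunit, was lower in KO by a log2 fold change of -0.16 ± 0.04 at 0 h, which did not pass without KO replicate 3 at 0 h (-0.12, adjusted p = 0.0521).

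The pacemaker channel genes Hcn2 and Hcn4, whose products carry the current that drives spontaneous firing in nodal cells, had log2 fold changes of 0.17 ± 0.07 and -0.21 ± 0.11 at 0 h and were not called.

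Some markers of atrial and conduction cells also differed between genotypes. Of 5 atrial markers, 4 were lower in KO at 0 h, with log2 fold changes of -1.66 for Myl7, -1.74 for Sln, -0.85 for Myl4 and -1.33 for Bmp10, while Nppa was higher (0.69). Their summed level, most of it Nppa, was 73.0 to 75.6 CPM in WT and 101 to 109 CPM in KO. Sln passed the filter for testing only through WT (1.08 to 1.34 CPM at 0 h, and at most 0.421 CPM in any KO library). For Sln the filter thus favoured a lower level in KO. Of 5 conduction system markers, 2 could be tested, and Cntn2 was lower in KO (-1.52). The other, Tbx3, was not called, with 3.30, 2.72 and 3.02 CPM in WT and 3.89, 3.00 and 4.38 CPM in KO at 0 h. The sums of this list were 4.69 to 5.63 CPM in WT and 3.78 to 5.54 CPM in KO at 0 h, and Isl1, another of its genes, had no count in any group. The part of these cells in the differences of channel genes was not tested.

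Kcne1 was the member with the largest rise in KO. It encodes the accessory subunit that pairs with the pore Kcnq1 to give the slow delayed rectifier current. Levels were 3.47, 3.42 and 3.93 CPM in WT and 8.34, 8.16 and 8.65 CPM in KO at 0 h, 3.73 and 4.69 CPM in WT and 9.32, 8.48 and 8.63 CPM in KO at 4 h, and 3.67, 3.38 and 4.34 CPM in WT and 8.46, 8.33 and 9.38 CPM in KO at 8 h. All KO libraries lay above all WT libraries. Kcne1 was 2.32-fold higher in KO at 0 h (log2 fold change 1.21 ± 0.12 SE, adjusted p = 1.1e-12, edgeR), and the log2 fold change was 1.06 ± 0.14 at 4 h and 1.20 ± 0.13 at 8 h. Its partner Kcnq1 had a log2 fold change of 0.23 ± 0.06 at 0 h (adjusted p = 0.00229), which was 0.02 when scaled by library size and -0.10 when scaled to ribosomal protein genes. Within libraries, Kcne1 counts per Kcnq1 count were 0.0994 to 0.116 in WT and 0.211 to 0.220 in KO at 0 h, so the unequal change of both genes does not rest on the scaling. The other tested Kv accessory gene, Kcnip2, was higher in KO by 0.17 ± 0.04 at 0 h and 0.18 ± 0.04 at 8 h, but scaled by library size the first turned to -0.04 and the second was lost (0.08).

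**Figure D3:**
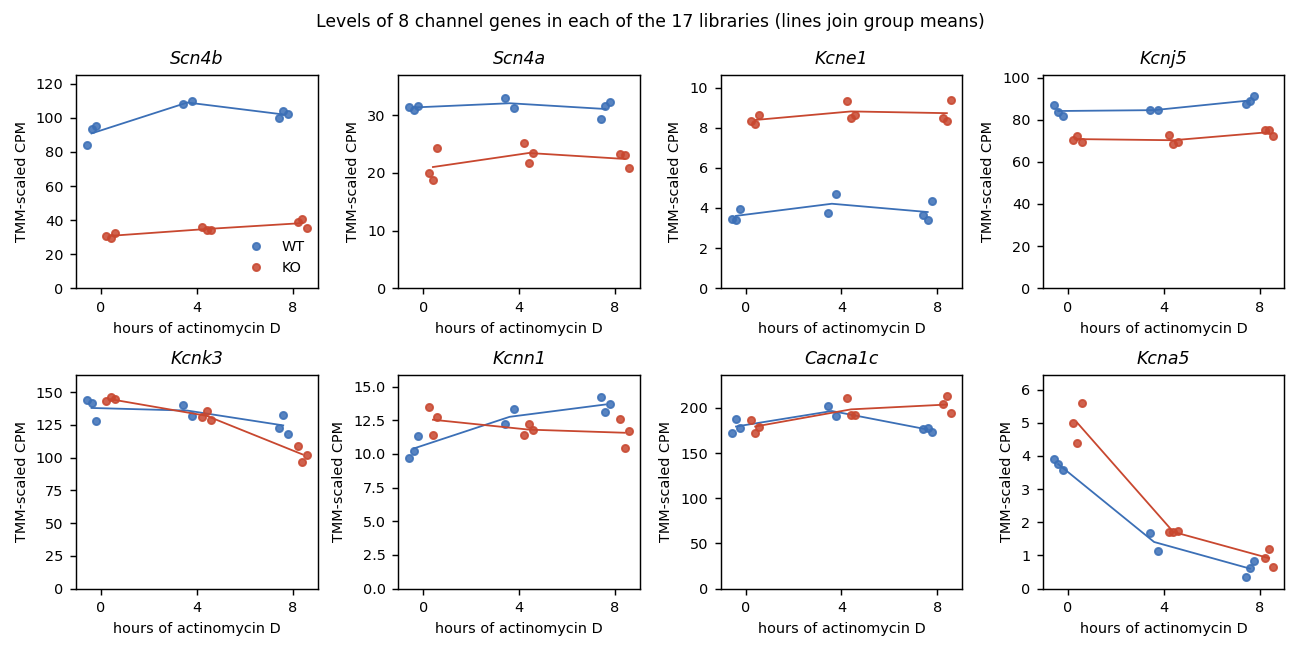
TMM-scaled CPM of 8 channel genes in each library against hours of actinomycin D, with WT in blue and KO in red, points for libraries and lines through group means. Scn4b is lower and Kcne1 higher in KO at every time, Kcna5 falls in both genotypes, and Kcnk3 falls further in KO at 8 h.

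Of 14 tested Kv pores, 5 were higher and 3 lower in KO at 0 h, beside 18.8% and 17.9% of all genes. Kcnv2, a silent subunit that modifies other Kv channels, had 4.77, 3.62 and 3.93 CPM in WT and 2.42, 2.64 and 2.54 CPM in KO. Its log2 fold change was -0.69 ± 0.16 (SE, adjusted p = 3.8e-04, edgeR) at 0 h, -1.01 ± 0.17 at 4 h and -0.66 ± 0.17 at 8 h. Kcna7 was lower as well (-0.62 ± 0.15 at 0 h). Kcnd3, a pore of the transient outward current, had 15.7, 16.9 and 16.4 CPM in WT and 14.0, 14.3 and 13.0 CPM in KO (-0.25 ± 0.08), and was not called without KO replicate 3 or WT replicate 2 at 0 h (adjusted p = 0.0796 and 0.0769). The related pore Kcnd2 had a log2 fold change of 0.18 ± 0.07, which was -0.03 when scaled by library size and was lost without KO replicate 2 or WT replicate 1 at 0 h (adjusted p = 0.134 and 0.120). The ratio of both within a library needs no scaling, and there were 0.642 to 0.690 Kcnd3 counts per Kcnd2 count in WT at 0 h and 0.485 to 0.510 in KO. Kcna4, Kcna5 and Kcng2 made up the rest of the higher calls together with Kcnq1, with log2 fold changes of 0.78 ± 0.26, 0.42 ± 0.15 and 0.27 ± 0.08. None of these 3 passed with library size alone (0.57, 0.21 and 0.07). Those of Kcna4 and Kcna5 were also lost on leaving out single libraries (KO replicate 3 at 0 h gave 0.59, adjusted p = 0.138, and 0.33, adjusted p = 0.147; WT replicate 1 at 0 h ended that of Kcna4, and KO replicate 1 or WT replicate 3 that of Kcna5).

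Among 7 tested inward rectifiers, 3 were lower in KO at 0 h and none higher, beside 17.9% of all genes lower and 18.8% higher. Kcnj5, a pore of the acetylcholine-activated channel, had 86.9, 83.7 and 81.8 CPM in WT and 70.5, 72.3 and 69.6 CPM in KO, with no overlap. Its log2 fold change was -0.25 ± 0.05 (SE, adjusted p = 3.1e-05, edgeR) at 0 h, -0.27 ± 0.05 at 4 h and -0.27 ± 0.05 at 8 h. Kcnj14 was lower from few counts (-0.72 ± 0.26 at 0 h, -0.97 ± 0.31 at 4 h and -0.88 ± 0.32 at 8 h), and at each time its call was lost without a single library. These were KO replicate 3 or WT replicate 1 at 0 h (adjusted p = 0.113 and 0.0662), KO replicate 1 or WT replicate 2 at 4 h (0.0890 and 0.0736), and KO replicate 1 or 2 or WT replicate 1 at 8 h (0.135, 0.0569 and 0.170). Kcnj11 had a smaller difference of -0.15 ± 0.05 at 0 h, lost without WT replicate 2 at 0 h (-0.09, adjusted p = 0.191). Abcc9, which encodes a sulphonylurea receptor that pairs with Kcnj11, was lower by -0.42 ± 0.05, while Abcc8, which encodes another, had a log2 fold change of 0.25 ± 0.06. Per Kcnj11 count there were 3.63 to 4.00 Abcc9 counts in WT and 3.04 to 3.39 in KO, and 0.314 to 0.353 Abcc8 counts in WT and 0.421 to 0.463 in KO. The ratio of the receptors thus differed between genotypes without any scaling.

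Kcnk3 was level between genotypes at 0 h (0.07 ± 0.05). The other tested two-pore channel, Kcnk6, and the glial and fibroblast sodium channel Scn7a were called lower in KO at 0 h from few counts. Scn7a had 88 counts in the 3 WT libraries and 40 in the 3 KO libraries (ratio 0.523, 95% exact interval 0.350 to 0.768), and its call was lost without KO replicate 2 at 0 h (adjusted p = 0.105). Kcnk6 had 40 and 13 counts (ratio 0.374, interval 0.183 to 0.714), and its call was lost without KO replicate 2, KO replicate 3 or WT replicate 3 at 0 h (adjusted p = 0.0738, 0.0538 and 0.0617). Kcnk6 passed the filter for testing only through WT at 0 h (0.704, 0.545 and 0.766 CPM, at most 0.338 elsewhere). The filter thus favoured a lower level in KO, so this comparison cannot decide whether the genotypes differ in Kcnk6. Scn7a and Kcnk6 are both low in the same libraries in which the fibroblast, macrophage and endothelial sums given above are low. The part of those cells was not tested. Kcnn1, a small-conductance calcium-activated channel, was higher in KO at 0 h (0.27 ± 0.09), not so with library size alone (0.06) or without KO replicate 1 or WT replicate 1 at 0 h (adjusted p = 0.1 and 0.0571).

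At 4 h of actinomycin D, 20 members were called between genotypes, 1 higher and 19 lower in KO, beside 32.0% of all genes (14.6% higher and 17.4% lower). The median log2 fold change was -0.24 over the members and -0.04 over all genes. At 8 h the number was 18, with 3 higher and 15 lower, beside 27.6% of all genes (13.9% and 13.7%) and medians of -0.10 and -0.02. With library size alone the splits were 1 and 23 at 4 h and 1 and 20 at 8 h. A total of 11 members were called at all 3 times, each in 1 direction, beside 14.5% of all genes (7.62% higher and 6.92% lower). Kcne1 was higher, and the 10 that were lower included Scn4b, Scn4a, Cacna1s, Cacnb1, Kcnj5, Kcnj14 and Kcnv2. No libraries are shared between these 3 comparisons, but all 3 come from 1 fitted model. The labels do not say whether the same animals gave libraries at different times, so the 3 comparisons need not be independent.

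**Figure D4:**
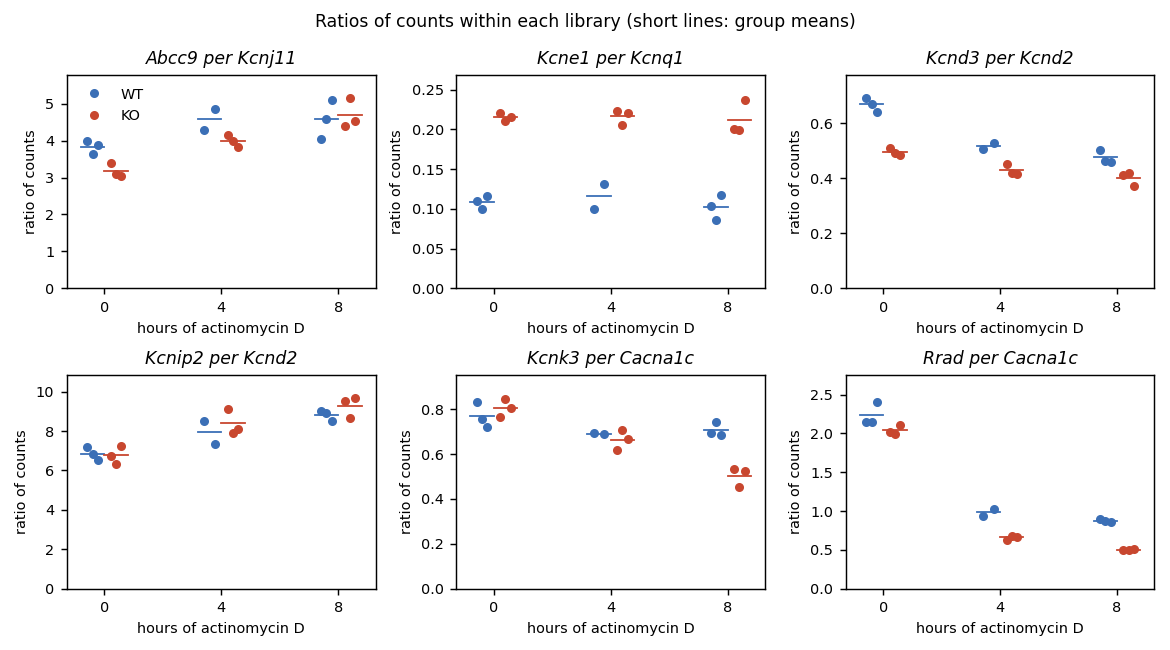
Ratio of the counts of both genes within each library, by hours of actinomycin D, with WT in blue, KO in red and short lines for group means. Kcne1 per Kcnq1 is higher and Rrad per Cacna1c lower in KO at each time, and Kcnk3 per Cacna1c separates the genotypes only at 8 h.

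During the block, levels are shares of the RNA that remains, so a rise is a rise against other transcripts and not new synthesis. In WT, 11 members were called at 4 h against 0 h (6 higher and 5 lower), beside 28.5% of all genes (15.9% and 12.6%), and 19 at 8 h (7 higher and 12 lower), beside 51.8% of all genes (25.0% and 26.8%). In KO the numbers were 13 at 4 h (4 and 9), beside 24.9% of all genes (11.4% and 13.5%), and 17 at 8 h (6 and 11), beside 44.6% of all genes (21.4% and 23.2%). The members' median at 8 h was -0.06 in WT and -0.05 in KO, and that of all genes -0.03 and -0.02. With library size alone the 8 h splits were 1 and 24 in WT and 4 and 13 in KO, and the 4 h splits 1 and 9 and 2 and 8. At 8 h, 14 members were called in both genotypes, each in 1 direction, with 4 higher and 10 lower, beside 35.0% of all genes (17.1% higher and 17.9% lower).

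Of the 10 that fell in both, 8 were potassium channel genes, which also made up most of the 48 tested members. Those tested were 14 Kv pores, 2 Kv accessory genes, 7 inward rectifiers, 2 two-pore channels and 2 calcium-activated channels. Kcna5, the pore of the ultrarapid delayed rectifier, had 3.90, 3.77 and 3.59 CPM at 0 h in WT, 1.67 and 1.14 CPM at 4 h, and 0.355, 0.629 and 0.820 CPM at 8 h. In KO it had 5.01, 4.38 and 5.60 CPM at 0 h, 1.70, 1.70 and 1.73 CPM at 4 h, and 0.907, 1.18 and 0.661 CPM at 8 h. The 3 times did not overlap in either genotype. The level at 8 h was 6.16-fold below that at 0 h in WT (log2 fold change -2.62 ± 0.24 SE, adjusted p = 7.5e-15, edgeR) and 5.44-fold below it in KO (-2.44 ± 0.21, adjusted p = 2.8e-15), and the difference between genotypes was 0.18 ± 0.36 (adjusted p = 0.847).

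The inward rectifier pores of the resting membrane fell as well. Kcnj2, the main pore of that current, had 33.3, 31.1 and 34.4 CPM at 0 h and 22.5, 20.7 and 21.4 CPM at 8 h in WT, and 32.1, 30.3 and 29.7 CPM and 17.7, 17 and 17 CPM in KO. Its log2 fold change over 8 h was -0.61 ± 0.07 (SE) in WT and -0.83 ± 0.07 in KO, with adjusted p of 6.5e-12 and 1.4e-15 in edgeR. Levels of Kcnj2 at 8 h did not overlap between genotypes (log2 fold change KO over WT -0.32 ± 0.07), but the difference of the changes did not pass (-0.22 ± 0.10, adjusted p = 0.201). Kcnj12, which forms channels of the same current, fell by 0.84 ± 0.09 in WT and by 0.67 ± 0.09 in KO on the log2 scale.

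Smaller falls in both genotypes over 8 h were found in Kcnd3 (-0.47 ± 0.08 in WT and -0.36 ± 0.09 in KO), Kcnh2, the pore of the rapid delayed rectifier (-0.26 ± 0.06 and -0.39 ± 0.06) and Cacnb2 (-0.35 ± 0.06 and -0.47 ± 0.06). Scn7a and Kcnk6 fell from few counts. Scn7a went from 88 to 15 counts over the WT libraries (ratio 0.197, 95% exact interval 0.106 to 0.343) and from 40 to 14 over the KO libraries (0.368, 0.185 to 0.690). Kcnk6 went from 40 to 2 counts in WT (ratio 0.0579, interval 0.00678 to 0.223) and from 13 to 2 in KO (0.162, 0.0177 to 0.714), and its call in KO was lost without KO replicate 1 at 0 h or KO replicate 1 or 3 at 8 h (adjusted p = 0.0932, 0.104 and 0.107). Kcnj8, the ATP-sensitive channel pore of vessels, went from 36 to 8 counts in WT (ratio 0.257, interval 0.103 to 0.563) and was not called in KO, with 15 and 10 counts. Kcnk6 and Kcnj8 passed the filter for testing only through WT at 0 h. The filter thus favoured a fall from that group, which neither the calls nor the intervals in WT allow for. All 9 endothelial markers were lower at 8 h in both genotypes, and their sums went from 248 to 259 CPM down to 50.3 to 54.2 CPM in WT and from 176 to 202 CPM down to 45.2 to 51.6 CPM in KO. All 8 fibroblast markers were also lower at 8 h (sums of 38.6 to 45.1 CPM in WT and 22.4 to 25.4 CPM in KO). Of 7 tested pericyte and smooth muscle markers, 6 were lower and 1 higher at 8 h in both genotypes (median log2 fold change -0.65 in WT and -1.0 in KO). All 8 tested macrophage markers were lower in WT (median -2.41) and 5 of 8 in KO (-0.51). Their part in these 3 genes was not tested.

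**Figure D5:**
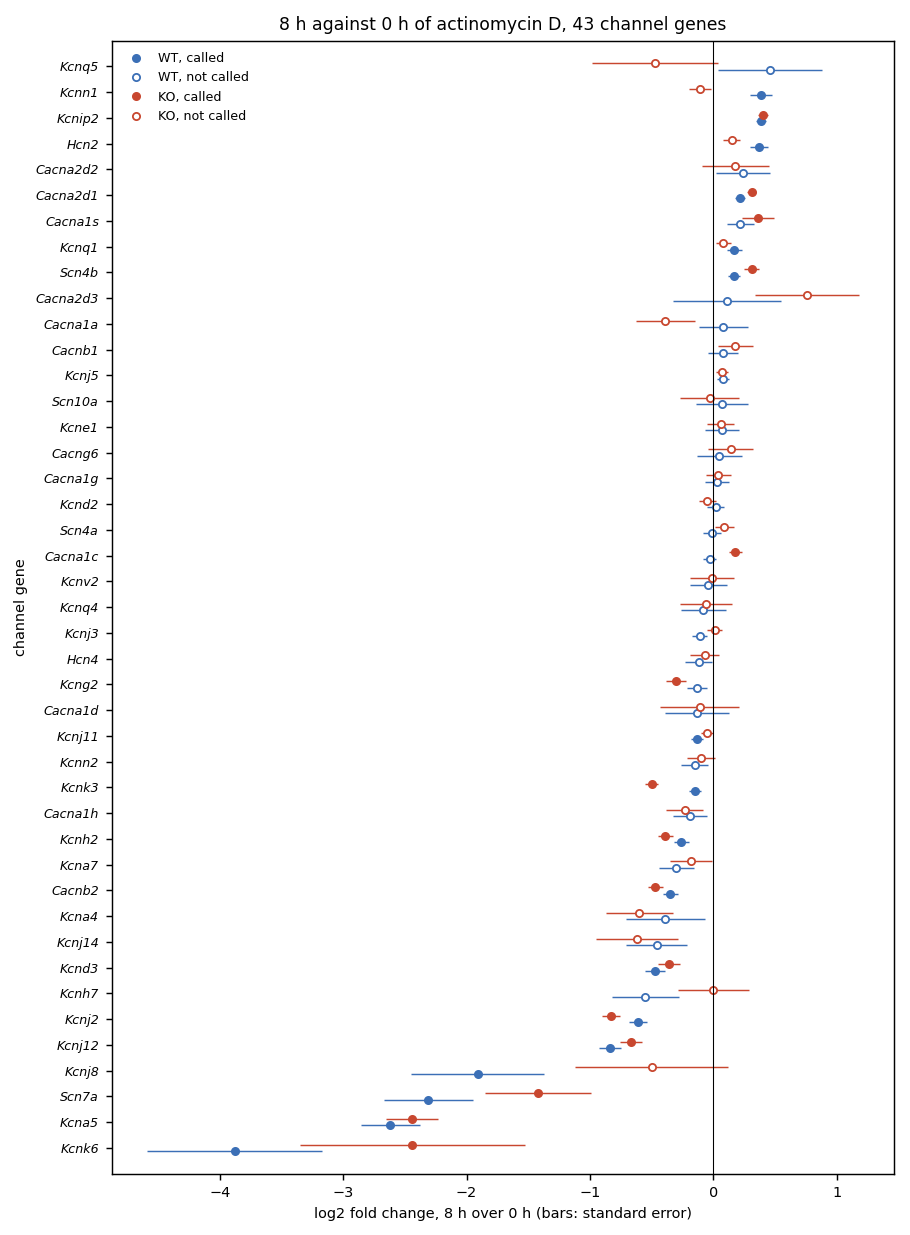
Log2 fold change at 8 h over 0 h of actinomycin D for 43 of the 48 tested channel genes in WT (blue) and KO (red), with bars for the standard error; filled points passed the adjusted p of 0.05. Kcna5 is near the bottom in both genotypes (-2.62 and -2.44), and the points of Kcnn1 lie on opposite sides of 0 (0.39 in WT, -0.11 in KO).

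The 4 members called higher at 8 h in both genotypes were all accessory subunits, among them Kcnip2, Cacna2d1 and Scn4b. Accessory genes tested were 2 of Kv channels, 3 alpha2delta, 2 beta and 1 gamma of calcium channels, and 2 sodium channel beta subunits. Pore genes were called higher at 8 h in 1 genotype only, Hcn2, Kcnn1 and Kcnq1 in WT and Cacna1c and Cacna1s in KO. Cardiomyocyte markers were also higher at 8 h, 8 of 10 in WT (median log2 fold change 0.51) and 9 of 10 in KO (0.34), and their part was not tested. Kcnip2 went from 164, 172 and 167 CPM to 216, 223 and 217 CPM in WT and from 185, 185 and 194 CPM to 261, 240 and 244 CPM in KO, with log2 fold changes of 0.39 ± 0.04 (SE, adjusted p = 5.1e-11, edgeR) and 0.40 ± 0.04 (adjusted p = 2.0e-11). The log2 fold changes of Cacna2d1 were 0.22 ± 0.04 and 0.31 ± 0.04, and those of Scn4b were 0.17 ± 0.05 and 0.31 ± 0.06. Scaled to ribosomal protein genes, which shifted the median of all genes by -0.66 in WT, the direction in WT turned for Kcnip2 (-0.27), Cacna2d1 (-0.43) and Scn4b (-0.49), and that in KO for Cacna2d1 (-0.07) and Scn4b (-0.06). Scaled by library size, Scn4b turned in WT (-0.05), and Cacna2d1 no longer passed there (0.01). The WT call of Scn4b was lost without WT replicate 1 at 0 h (adjusted p = 0.0733). Within libraries, Kcnip2 counts per Kcnd2 count rose from 6.55 to 7.20 at 0 h to 8.53 to 9.01 at 8 h in WT, and from 6.33 to 7.25 to 8.64 to 9.70 in KO. These ranges did not overlap in either genotype.

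Whether the change during the block differed between genotypes was tested as an interaction, the log2 change in KO minus that in WT. At 4 h, 0 of 48 members passed in edgeR's quasi-likelihood test, beside 0.348% of all genes, and 0 passed in DESeq2. At an unadjusted p under 0.05 there were 10 of 48, beside 9.09% of all genes. The lowest adjusted p was 0.109, for Cacnb2 (-0.34 ± 0.10 SE), which was called without KO replicate 3 at 0 h or without WT replicate 2 at 0 h. At 8 h, 3 of 48 passed (2 in DESeq2), beside 5.20% of all genes, and 5 of 48 had an unadjusted p under 0.05, beside 18.6% of all genes. The 3 calls comprised 1 higher (1.87% of all genes) and 2 lower (3.33%). None of these 3 calls held under all 25 alternatives. In the same test, 3 of 10 cardiomyocyte markers were lower and all 8 tested macrophage markers higher, and their part in the 3 calls was not tested.

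Kcnk3 had the lowest adjusted p of these. Its levels in WT were 144, 142 and 128 CPM at 0 h, 140 and 132 CPM at 4 h, and 123, 133 and 118 CPM at 8 h. In KO they were 143, 146 and 145 CPM at 0 h, 131, 136 and 129 CPM at 4 h, and 109, 96.6 and 102 CPM at 8 h. The genotypes overlapped at 0 h, and at 8 h all KO libraries lay below all WT libraries. The log2 fold change over 8 h was -0.15 ± 0.05 (SE) in WT and -0.50 ± 0.05 in KO, and the interaction was -0.35 ± 0.07 (adjusted p = 6.9e-04, edgeR). Its sign was the same under all alternatives, but it did not pass when scaled by library size (-0.25, adjusted p = 0.0539) or to ribosomal protein genes (-0.07, with an adjusted p of 0.617). The WT change by itself was lost without WT replicate 1 or 2 at 0 h or WT replicate 3 at 8 h (adjusted p = 0.0828, 0.0688 and 0.0932).

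Cacna1c differed in the other direction. It had 172, 188 and 178 CPM at 0 h and 177, 178 and 173 CPM at 8 h in WT, and 187, 172 and 179 CPM and 204, 213 and 194 CPM in KO. The groups at 0 h overlapped and those at 8 h did not. The interaction was 0.21 ± 0.06 (SE, adjusted p = 0.0365, edgeR), and it was larger when scaled by library size (0.32) or to ribosomal protein genes (0.49). The change in KO itself was 0.18 ± 0.05, but 0.07 when scaled by library size (adjusted p = 0.298) and -0.20 when scaled to ribosomal protein genes (adjusted p = 0.0107). DESeq2 gave an adjusted p of 0.0543, and 8 of 17 fits that left out 1 library did not pass (without KO replicate 2 or 3 or WT replicate 2 or 3 at 0 h, or without KO replicate 1 or 2 or WT replicate 1 or 3 at 8 h), with adjusted p from 0.058 to 0.19 among these. These genes were set beside each other because their interactions had opposite signs, so their ratio is given only as a description. Kcnk3 counts per Cacna1c count were 0.720 to 0.833 at 0 h and 0.685 to 0.745 at 8 h in WT, and 0.766 to 0.848 and 0.453 to 0.535 in KO. The genotypes overlapped in this ratio at 0 h and stood apart at 8 h.

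Kcnn1 had 9.70, 10.2 and 11.3 CPM at 0 h and 14.2, 13.1 and 13.7 CPM at 8 h in WT, and 13.5, 11.4 and 12.7 CPM and 12.6, 10.4 and 11.7 CPM in KO. It rose in WT (0.39 ± 0.09 SE) and overlapped between times in KO (-0.11 ± 0.09). The interaction was -0.51 ± 0.13 (adjusted p = 0.00955, edgeR), and it was lost when scaled by library size (-0.40, adjusted p = 0.0737) or to ribosomal protein genes (-0.23, with an adjusted p of 0.246) and without KO replicate 2 at 8 h (-0.44, adjusted p = 0.0539). The rise in WT turned to -0.26 with ribosomal protein scaling.

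Partners of the channels were read from the same fit. Of 9 tested calcium channel partners (13 listed), 1 passed the interaction at 4 h and 2 at 8 h, all lower. Over all genes, 0.106% and 3.33% were lower in these tests. Rrad, a small GTPase that holds back L-type channels, had 371, 404 and 430 CPM in WT and 378, 343 and 378 CPM in KO at 0 h, and 158, 155 and 149 CPM and 102, 106 and 99.7 CPM at 8 h. It fell in both genotypes (log2 fold change over 8 h -1.39 ± 0.05 SE in WT and -1.84 ± 0.05 in KO), and further in KO, with an interaction of -0.43 ± 0.07 at 4 h and -0.45 ± 0.07 at 8 h (adjusted p = 5.0e-05 and 2.0e-06, edgeR). Scaling by library size ended the first call (-0.28, adjusted p = 0.113), and scaling to ribosomal protein genes the second (-0.17, with an adjusted p of 0.163). Rrad counts per Cacna1c count did not overlap between genotypes, at 2.15 to 2.41 in WT and 1.99 to 2.11 in KO at 0 h and 0.862 to 0.891 and 0.497 to 0.514 at 8 h. The interaction of Cacna1c had the opposite sign (0.21), so this ratio holds the changes of both genes and is only a description. Rrad itself was called lower in KO at 0 h, but not without KO replicate 2, WT replicate 2 or WT replicate 3 at 0 h (adjusted p = 0.169, 0.0593 and 0.278, edgeR). Jph2, which joins the cell membrane to the calcium store, had an interaction of -0.27 ± 0.06 at 8 h, lost with library size alone (-0.16) and turned to 0.01 with ribosomal protein scaling.

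Of 8 tested potassium channel partners (12 listed), 6 were called between genotypes at 0 h, 3 in each direction, and 1 passed the interaction at 8 h. Over all genes these shares were 36.6% and 5.20%. Akap5, among those lower, passed the filter only through WT (0.814 to 1.19 CPM at 0 h, at most 0.36 CPM in KO). For Akap5 the filter favoured a lower level in KO. Abcc9 had 412, 427 and 426 CPM in WT and 331, 309 and 306 CPM in KO at 0 h, without overlap, and 410, 471 and 502 CPM and 439, 474 and 431 CPM at 8 h, with overlap. Its interaction was 0.38 ± 0.07 (SE, adjusted p = 0.00111, edgeR) and passed under all 25 alternatives (0.30 to 0.65). Lrrc10, a cardiac protein known to modify L-type and other channels, had 76.3, 80.7 and 80.0 CPM in WT and 129, 129 and 136 CPM in KO at 0 h (log2 fold change 0.73 ± 0.05). Among 9 tested genes of sodium and potassium transport (10 listed), 3 were higher and 3 lower in KO at 0 h, beside 18.8% and 17.9% of all genes. The exchanger Slc8a1 was higher (447, 451 and 470 CPM in WT and 640, 637 and 618 CPM in KO, log2 fold change 0.47 ± 0.04) and the cotransporter Slc12a2 lower (-0.71 ± 0.10). Of 9 transcription factors known to control channel genes, 2 were higher (Hey2 and Irx3) and 1 lower (Zfhx3) in KO at 0 h. The shares over all genes were again 18.8% and 17.9%. The repressor Irx3 had an interaction of -0.40 ± 0.12 at 8 h, which did not pass when scaled by library size (-0.30, adjusted p = 0.154) or to ribosomal protein genes (-0.13, with an adjusted p of 0.517), with no filter on low counts (-0.35, adjusted p = 0.1), in DESeq2 (adjusted p = 0.0642) or without KO replicate 3 at 0 h, KO replicate 2 at 8 h or WT replicate 2 at 8 h (adjusted p = 0.063, 0.183 and 0.0751).

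In all, 11 of the 48 tested members passed in none of the 9 comparisons, beside 23.1% of all genes, among them the T-type pore Cacna1g, the pacemaker gene Hcn4 and the small-conductance channel Kcnn2. Of the 48, 18 overlap exons of a gene on the opposite strand, by more than 10% of their exon length in Cacna1s and Kcnj3 (31.1%) among others, whose counts are therefore uncertain without knowing whether strand was used. One count per gene does not show which exons were spliced in, so the splicing of these genes was not analysed here.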

How the data were processed

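The authors deposited raw read counts per Ensembl gene, which were used as deposited. The builds GRCm38 and mm10 and the tools STAR, featureCounts, limma and DESeq2 are listed in the submitters' processing notes. Their versions, and the handling of strand and of multi-mapped reads, were not given in the sources used here. A deposited table of ratios was not used. A row naming no gene (0.00735 to 0.0155% of counts) was left out. GENCODE M21 (GRCm38) matched 55226 of 55486 genes (99.5%) and gave symbols, exon lengths and 3′ UTRs.

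Counts were fitted with edgeR 4.0.16 in R 4.3.3: filterByExpr (13229 genes, 99.9% of counts), TMM, and 1 robust quasi-likelihood model of the 6 groups (biological coefficient of variation 5.29%), tested in 9 comparisons. Adjustment was by Benjamini-Hochberg across the tested genes, with calls at 0.05. Alternatives were RLE factors, library size alone, ribosomal protein genes as the scale, 2 filters, DESeq2 1.42.0, the compared groups only, a replicate block, and leaving out each of 17 libraries. Intervals on summed counts are exact at 95% and cover counting error only. Within groups, 16 library pairs held no duplicate. Residuals of same-numbered libraries correlated over 0.1 in all 3 pairs only for WT at 0 and 8 h (0.175 to 0.182). For KO at 0 and 4 h the values were 0.155, 0.0988 and 0.102, and at most 0.00849 between different numbers. For KO at 0 and 8 h they were -0.0393, -0.024 and 0.126. Over all 40 same-numbered pairs the range was -0.18 to 0.182, and over 80 pairs with different numbers it was -0.277 to 0.277. Both sets include pairs of a KO with a WT library. These values do not settle whether equal numbers mark pairs, and the labels do not say. The main model therefore used no pairing.

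Members and gene lists were chosen with earlier results of these data known. Every tested member could be named; of the partner lists, genes that passed the test with a mean log2 CPM of at least 3 and the 3 largest changes in each direction were given values, and others are named without them. Some members and partners are counted but not reported by name here.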

Additional observations from a re-analysis of the deposited data

Results flagged for a closer look

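The change over the block differed between genotypes, by a test of the difference itself in edgeR's quasi-likelihood model, for 3 channel genes at 8 h. The interaction, the log2 change in KO minus that in WT, was -0.35 for Kcnk3, -0.51 for Kcnn1 and 0.21 for Cacna1c. Kcnk3 fell in both genotypes and further in KO, Kcnn1 rose in WT and did not pass in KO, and Cacna1c rose in KO and did not pass in WT. The direction of Cacna1c in KO depended on the scaling, and its change was -0.20 when scaled to ribosomal protein genes. In edgeR, the interactions of Kcnk3 and Kcnn1 did not pass when scaled by library size (adjusted p = 0.0539 and 0.0737). Neither passed when scaled to ribosomal protein genes (adjusted p = 0.617 and 0.246).

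Among the partner genes the interaction passed for Rrad, at -0.43 after 4 h and -0.45 after 8 h. At 8 h it passed for Abcc9 (0.38), Jph2 (-0.27), Irx3 (-0.40), the anion exchanger gene Slc4a3 (0.21) and the transcription factor gene Prrx1 (0.27). The calls of Slc4a3 and Prrx1 were each lost without single libraries, with adjusted p up to 0.174 for Slc4a3 (without WT replicate 3 at 0 h) and 0.131 for Prrx1 (without KO replicate 1 at 0 h).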

How the results depend on the processing

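The scaling changed more than any other choice tried. With ribosomal protein genes as the scale, 39 members were called between genotypes at 4 h, 45 at 8 h against 0 h in WT and 30 in KO, and 12 in the 8 h interaction, all 12 higher. With library size alone the 8 h interaction had 1 call. Leaving out 1 library gave 8 to 13 calls at 4 h in KO, the lowest without KO replicate 1 at 4 h, 0 to 1 in the 4 h interaction, and 1 to 3 in the 8 h interaction, the lowest without KO replicate 2 at 8 h. The other total counts stayed within 1.5 times, but counts in 1 direction did not. Higher calls in KO went from 8 to 5 at 0 h without WT replicate 1 at 0 h, from 1 to 2 at 4 h without KO replicate 1 at 0 h and to 3 without KO replicate 2 at 8 h or WT replicate 1 at 4 h, and from 3 to 5 at 8 h without WT replicate 2 at 8 h. At 4 h in KO, higher calls went from 4 to 2 without KO replicate 2 at 0 h or KO replicate 1 at 4 h, and lower calls from 9 to 5 without KO replicate 3 at 0 h or at 4 h. With library size alone the sign turned for Kcnd2 (-0.03) and Kcnip2 (-0.04) between genotypes at 0 h, for Cacna1c at 4 h in WT (-0.05), and for Kcnq1 (-0.05) and Scn4b (-0.05) at 8 h in WT. With ribosomal protein scaling it turned at 0 h for Kcnd2 (-0.14), Kcnq1 (-0.10), Kcnn1 (-0.06), Kcng2 (-0.06) and Kcnip2 (-0.16), and at 4 h for Cacna1c (-0.05 in WT and -0.08 in KO) and Scn4b (-0.04 in KO). At 8 h it turned in WT for Cacna2d1 (-0.43), Kcnq1 (-0.49), Hcn2 (-0.29), Kcnn1 (-0.26), Scn4b (-0.49) and Kcnip2 (-0.27), in KO for Cacna1s (-0.02), Cacna2d1 (-0.07), Cacna1c (-0.20) and Scn4b (-0.06), and in the interaction for Jph2 (0.01). The cause was not tested. The replicate block joined libraries of equal replicate number across both genotypes, so a pairing within each genotype was not fitted. With the replicate block, calls were 24, 21 and 18 between genotypes at 0, 4 and 8 h, 11 and 19 at 4 and 8 h in WT, 12 and 17 in KO, and 0 and 3 in the interactions. The block ended the calls of Cacna1c at 4 h in WT (0.12, adjusted p = 0.0883) and Scn7a at 4 h in KO (-1.05, adjusted p = 0.0519) and no other call of a named gene. Counts below about 10 per library limit Kcnk6, Kcnj8 and the untested members.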
